A study of Mus musculus with 9 samples.

Results

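The laminin subunits are the chains of the laminins, and 9 of the 24453 genes in the expression table were taken as members by their symbols: the α chains Lama1, Lama2, Lama3, Lama4 and Lama5, the β chains Lamb1 and Lamb2, and the γ chains Lamc1 and Lamc3. They were followed in RNA-seq libraries of mouse liver cells, 3 per group, all on the C57BL/6J strain. Hepatic stellate cells (HSCs) came from healthy livers of wild-type mice and were purified by density gradient, without a sort on a reporter. CCl4-fib were CD45- GFP+ cells from Col1a2-GFP transgenic mice, which express green fluorescent protein from the collagen α2(I) promoter, after carbon tetrachloride injections 2 times per week for 8 weeks. NASH-fib were CD45- GFP+ cells from MC4R-KO mice carrying the same transgene (MC-COL mice), males that ate a Western diet for 20 weeks from 8 weeks of age. Both fibroblast groups thus share the reporter and the sort, which the HSCs lack, and NASH-fib also carry the melanocortin 4 receptor deletion in addition to the diet, so genotype, diet and model cannot be told apart. Cells of several mice went into each library, and p-values measure the spread between these pools. The comparisons ask how laminin expression differs between fibroblasts of each fibrotic liver and quiescent HSCs, and between the 2 models.

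Laminins are large secreted glycoproteins built from one α, one β and one γ chain joined in a coiled coil. They polymerize into the sheet on which basement membranes assemble, and the end of the α chain binds cells through integrins and dystroglycan. In normal liver the space between hepatocytes and the sinusoid holds little continuous basement membrane, and stellate cells lie in that space. In fibrosis, laminins and type IV collagen are deposited there in a process known as capillarization. Laminin names give the chains in order, so that laminin-111 is the trimer of the products of Lama1, Lamb1 and Lamc1. Messenger RNA levels of single chains do not show which trimers were made.

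Promoter sequences were at hand in the RefSeq-derived table (build GRCm38.p6) for 4 of the 9 members, and they are shown because these 4 include both β chains, of which Lamb1 fell in NASH-fib and Lamb2 rose in CCl4-fib, and a pair of α chains that rose in NASH-fib. Each runs 5′ to 3′ on the strand of the gene from 250 bases before to 50 bases after its start. Capitals mark a GC box (GGGCGG, or CCGCCC on the other strand) or a CCAAT box (CCAAT, or ATTGG). They lie at chr12:31265043-31265342 on the plus strand for Lamb1, chr9:108479612-108479911 on the plus strand for Lamb2, chr10:27616893-27617192 on the minus strand for Lama2 and chr2:180225810-180226109 on the minus strand for Lama5.
Lamb1: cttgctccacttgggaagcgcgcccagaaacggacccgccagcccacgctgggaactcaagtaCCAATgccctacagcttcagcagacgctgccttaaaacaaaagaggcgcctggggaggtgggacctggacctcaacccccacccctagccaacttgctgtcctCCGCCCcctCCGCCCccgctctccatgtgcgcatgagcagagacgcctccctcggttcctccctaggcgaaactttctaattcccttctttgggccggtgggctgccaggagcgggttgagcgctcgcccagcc
Lamb2: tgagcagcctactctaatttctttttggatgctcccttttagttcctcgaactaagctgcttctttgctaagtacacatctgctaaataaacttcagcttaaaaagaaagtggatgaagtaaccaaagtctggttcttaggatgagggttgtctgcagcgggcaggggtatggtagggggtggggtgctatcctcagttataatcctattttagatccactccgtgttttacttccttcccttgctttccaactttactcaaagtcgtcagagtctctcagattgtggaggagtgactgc
Lama2: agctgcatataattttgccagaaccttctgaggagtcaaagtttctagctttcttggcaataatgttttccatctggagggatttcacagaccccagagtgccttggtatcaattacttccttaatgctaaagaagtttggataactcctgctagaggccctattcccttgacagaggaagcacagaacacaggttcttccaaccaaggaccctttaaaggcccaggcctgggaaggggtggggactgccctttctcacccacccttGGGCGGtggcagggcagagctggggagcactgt
Lama5: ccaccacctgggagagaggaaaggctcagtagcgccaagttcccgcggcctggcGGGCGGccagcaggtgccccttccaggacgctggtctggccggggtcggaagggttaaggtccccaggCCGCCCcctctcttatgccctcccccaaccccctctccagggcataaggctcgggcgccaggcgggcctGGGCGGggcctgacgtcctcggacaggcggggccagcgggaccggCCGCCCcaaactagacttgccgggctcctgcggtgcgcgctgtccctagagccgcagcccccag

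The windows of Lama5 and Lamb1 were rich in G and C, at 72.7% and 63.7%, with 24 and 18 CpG dinucleotides. Those of Lama2 and Lamb2 were at 50.3% and 44.0%, with 1 and 4 CpG dinucleotides. Over all 32851 windows of this length in the table, the medians were 52.7% and 7. The GC box occurred 4 times in Lama5, 2 times in Lamb1, 1 time in Lama2 and 0 times in Lamb2, while 35.7% of all windows held at least 1. A CCAAT box lay in the window of Lamb1 and in 37.4% of all windows. The letters CAGACA, a SMAD-binding element, occurred 1 time in Lamb2 and in 21.0% of all windows. None of the 4 held the letters of a TATA box (TATAAA), an AP-1 site (TGANTCA) or a TEAD site (GGAATG), which 13.6%, 7.81% and 14.7% of all windows held on either strand.

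The libraries held 3071070 to 5634273 reads on genes, and each value below is a read count scaled to a common library total of about 4471992, so that 1 read was worth 0.79 to 1.46. Markers of quiescent stellate cells (12 genes, among them Reln, Lrat and Colec10) summed to 56190 to 64210 in HSCs against 7042 to 10020 in CCl4-fib and 4690 to 7905 in NASH-fib. Markers of activated fibroblasts (10 genes) summed to 7250 to 12590, 52500 to 59710 and 34940 to 39940, and Col1a2, whose promoter drives the sorted reporter, was highest in CCl4-fib. By limma (adjusted p under 0.05, at least 2-fold), 9 of these 10 markers were higher in CCl4-fib than in HSCs. In NASH-fib 7 were higher and 2 lower than in HSCs, and 4 were lower than in CCl4-fib. Hepatocyte markers (15 genes) summed to 24990 to 55580 in HSCs, 2406 to 3484 in CCl4-fib and 8687 to 32770 in NASH-fib, and markers of sinusoidal endothelium (12 genes) to 9404 to 17990, 374 to 461.8 and 1432 to 4487. NASH-fib replicate 1 stood apart from the other NASH-fib libraries. Its deviations from the group mean correlated with those of HSC replicate 2 (r = 0.645 across genes), which carries the same date-like prefix in its name, but not with those of CCl4-fib replicate 1 (-0.13), which carries it too, and HSC replicate 3 and NASH-fib replicate 3, with different prefixes, correlated at 0.514. In bulk RNA, fewer cells of a type and less RNA per cell cannot be told apart.

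Among the α chains, Lama1 fell in both fibroblast groups, whereas Lama4 and Lama5 rose in CCl4-fib and Lama2 and Lama5 rose in NASH-fib. Lama1 encodes the α1 chain of laminin-111, the form best known from the early embryo and from basement membrane tumors (chr17:67697265-67822645, plus strand, mm10). HSC replicates 1, 2 and 3 held 673, 229 and 768, CCl4-fib held 11.1, 18.7 and 54.4, and NASH-fib held 4.08, 16.03 and 18.7. Every HSC library lay above all 6 fibroblast libraries, and the fibroblast groups overlapped. On the log2(value + 1) scale Lama1 fell by 4.38 ± 0.75 (SE) in CCl4-fib against HSCs, a 20.8-fold difference (limma, Benjamini-Hochberg adjusted p = 0.00180). In NASH-fib it fell by 5.37 ± 0.75, or 41.2-fold (limma, adjusted p = 0.000877). The first difference ranged from -4.99 without CCl4-fib replicate 3 to -3.90 without CCl4-fib replicate 1. The second was -4.75 when NASH-fib replicate 1, with 3 reads, was left out. NASH-fib and CCl4-fib differed by -0.99 ± 0.75 (limma, adjusted p = 0.411), which did not pass the test.

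Lama2 encodes the α2 chain of merosin, the laminin of muscle and peripheral nerve whose loss causes a congenital muscular dystrophy (chr10:26981285-27616942, minus strand). HSC libraries held 104, 84.5 and 26.3, CCl4-fib 494, 318 and 83.0, and NASH-fib 424, 508 and 462. The NASH-fib libraries lay close together and above all HSC libraries, whereas CCl4-fib replicate 3 lay inside the HSC range. Lama2 rose by 2.89 ± 0.67 on the log2 scale in NASH-fib, or 7.42-fold (limma, adjusted p = 0.0165). That call rests on single libraries, since the adjusted p became 0.0541 without HSC replicate 3, where the difference was 2.29, and 0.0534 and 0.0524 on omitting replicates 2 and 3 of NASH-fib in turn. In CCl4-fib the difference of 1.92 ± 0.67 did not pass (limma, adjusted p = 0.0564). It was 1.32 without HSC replicate 3 (limma, adjusted p = 0.152), and 1.39 (0.208) and 1.70 (0.172) on omitting replicates 1 and 2 of CCl4-fib in turn. It passed without CCl4-fib replicate 3, at 2.67 (limma, adjusted p = 0.0120), and on leaving out NASH-fib replicate 1 (0.0490). It also passed with the replicate number as a block (0.0323), with the date-like prefix as a term, at 2.58 (0.0396), and in edgeR (0.0468) and DESeq2 (0.0125). Exons of Lama2 share 631 bases with the antisense gene Gm48084, and reads of both strands were counted.

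Lama4 encodes the α4 chain, which lacks the short arm and is typical of vessel walls and mesenchymal cells (chr10:38965515-39110188, plus strand). It was found at 158, 48.05 and 121 in the HSC libraries, at 641, 825 and 803 in those of CCl4-fib, and at 156, 388 and 531 in those of NASH-fib. All CCl4-fib libraries lay above all others, and NASH-fib replicate 1 lay inside the HSC range. Lama4 rose 7.66-fold in CCl4-fib, by 2.94 ± 0.54 on the log2 scale (limma, adjusted p = 0.00264). The difference of NASH-fib from HSCs was 1.70 ± 0.54 and did not pass (limma, adjusted p = 0.0694). Without NASH-fib replicate 1 it was 2.21 and passed (limma, adjusted p = 0.0117), and it also passed with values scaled by TMM (0.0458), in edgeR (0.0491) and in DESeq2 (0.00747). Between the models Lama4 was lower in NASH-fib by -1.24 ± 0.54, with no overlap of libraries, but did not pass (limma, adjusted p = 0.161).

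Lama5 encodes the α5 chain, the most widespread α chain of adult basement membranes (chr2:180176373-180225859, minus strand; its GC-rich promoter is printed above). HSC libraries held 17.5, 13.1 and 43.0, CCl4-fib 203, 154 and 141, and NASH-fib 113, 265 and 129.7. Both fibroblast groups lay wholly above the HSCs and overlapped each other. Lama5 rose by 2.87 ± 0.52 in CCl4-fib (7.31-fold; limma, adjusted p = 0.00252) and by 2.81 ± 0.52 in NASH-fib (7.01-fold; limma, adjusted p = 0.00479). With the date-like prefix as a term the second call was lost (limma, adjusted p = 0.0895). The fibroblast groups differed by -0.06, with a 95% interval of -1.22 to 1.10, and the sign turned with the TMM and upper-quartile scalings.

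Lama3 encodes the α3 chain of an epithelial laminin and was low throughout. Its values were 25.7, 18.9 and 16.7 (HSC replicates 1 to 3), 3.17, 10.2 and 20.04 (CCl4-fib) and 21.8, 9.80 and 13.8 (NASH-fib). These values rest on 4 to 22 reads per library. The groups overlapped in each comparison, and none of the differences passed, the largest in size being -1.09 ± 0.68 for CCl4-fib against HSCs (limma, adjusted p = 0.254). The exons share 197 bases with the antisense gene Gm29200.

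**Figure D1:**
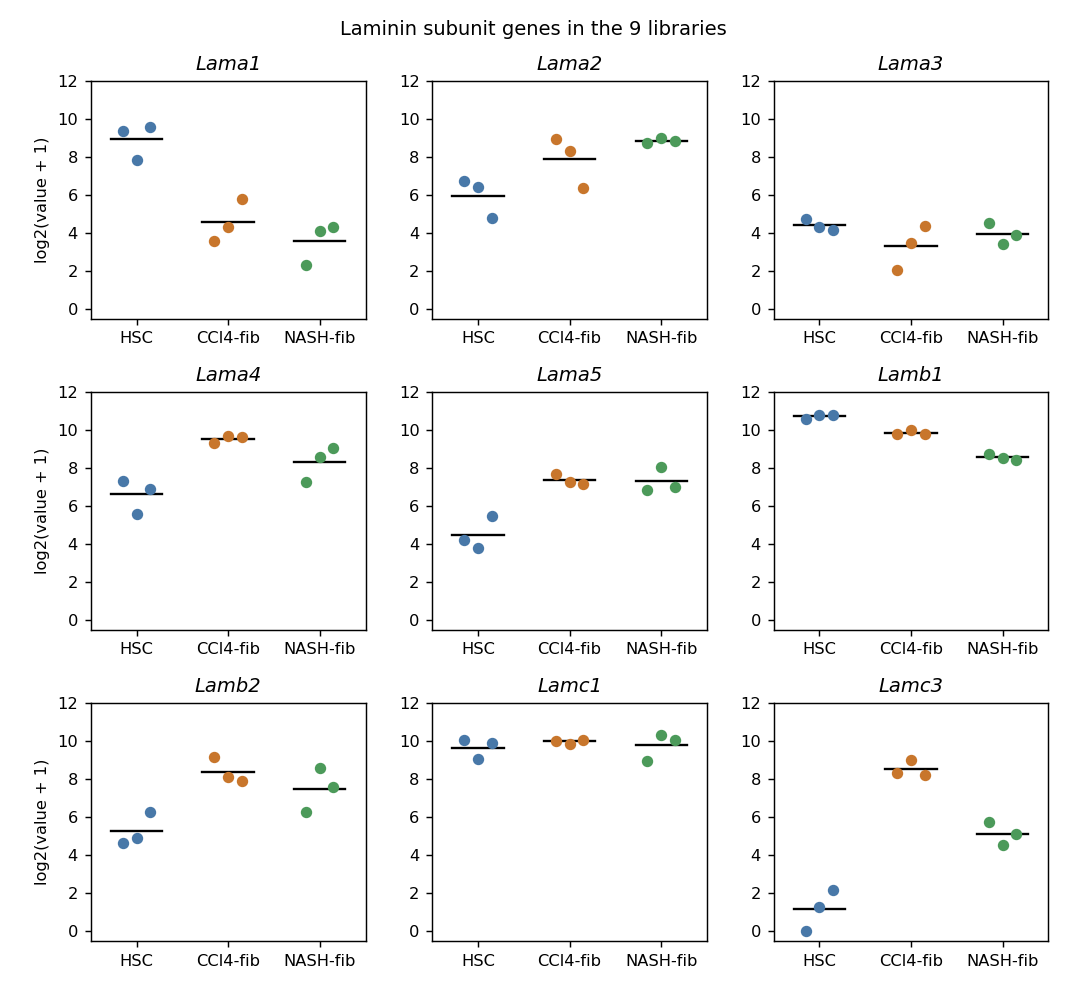
Level of the 9 laminin subunits as log2(value + 1), where the value is reads scaled to a common library total, with 1 point for each of the 3 libraries of HSC, CCl4-fib and NASH-fib and a bar at each group's mean. Lama1 and Lamb1 lie highest in HSC, and the Lamc3 values behind the points are 295 to 519 in CCl4-fib, 22.3 to 53.0 in NASH-fib and at most 3.59 in HSC.

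Of the β chains, Lamb1 fell in NASH-fib and Lamb2 rose in CCl4-fib. Lamb1 encodes the β1 chain of laminin-111 and of most vascular and mesenchymal laminins (chr12:31265294-31329639, plus strand). HSC libraries held 1547, 1771 and 1791, those of CCl4-fib 905, 1018 and 882, and those of NASH-fib 425, 372 and 341. The groups were in the order HSCs, CCl4-fib, NASH-fib with no overlap between any pair, and libraries within a group were close. Lamb1 fell by 2.17 ± 0.28 on the log2 scale in NASH-fib against HSCs, or 4.49-fold (limma, adjusted p = 0.000540). In CCl4-fib it was lower by -0.86 ± 0.28, or 1.82-fold (limma, adjusted p = 0.0419), short of the 2-fold limit set for a call. NASH-fib lay below CCl4-fib by 2.46-fold, a difference of -1.30 ± 0.28 that was called (limma, adjusted p = 0.0209). The last call was lost when any of 4 libraries was left out, with an adjusted p from limma of 0.0640, 0.101 and 0.0555 on omitting replicates 1, 2 and 3 of CCl4-fib in turn, and of 0.0747 on omitting NASH-fib replicate 3. It was also lost in edgeR (0.0598) and with the date-like prefix as a term (0.0832), while the difference kept its direction in all 21 alternatives.

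Lamb2 encodes the β2 chain, found at the neuromuscular junction, in the glomerulus and in vessel walls (chr9:108479862-108490530, plus strand). HSC libraries held 24.6, 29.1 and 77.7, CCl4-fib 581, 280 and 237, and NASH-fib 76.1, 387 and 191. All CCl4-fib libraries lay above the HSCs, but NASH-fib replicate 1 fell just under the highest HSC library. Lamb2 rose 8.62-fold in CCl4-fib, by 3.11 ± 0.65 (limma, adjusted p = 0.00560). The difference in NASH-fib was 2.19 ± 0.65 and narrowly did not pass (limma, adjusted p = 0.0539). It passed without NASH-fib replicate 1, at 2.80 (limma, adjusted p = 0.0104), without HSC replicate 3, at 2.69 (0.0311), with the TMM (0.0374) and upper-quartile (0.0434) scalings, in edgeR (0.0420) and in DESeq2 (0.00418). The fibroblast groups differed by -0.92 ± 0.65 (limma, adjusted p = 0.380).

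Of the γ chains, Lamc1 encodes γ1, the chain shared by most laminins (chr1:153218922-153332786, minus strand). It reached 1063, 533 and 956 (HSC replicates 1 to 3), 1034, 943 and 1079 (CCl4-fib) and 493, 1289.6 and 1078 (NASH-fib). The groups overlapped in all 3 comparisons, and HSC replicate 2 and NASH-fib replicate 1 were the lowest of the 9 libraries. No difference passed the test, with 0.32 for CCl4-fib against HSCs (95% interval -0.61 to 1.25; limma, adjusted p = 0.596) and 0.11 for NASH-fib against HSCs (-0.82 to 1.04; limma, adjusted p = 0.942). These intervals do not exclude a 2-fold rise in either fibroblast group. The difference between the models was -0.21 (limma, adjusted p = 0.772), and its sign turned without NASH-fib replicate 1 and in edgeR and DESeq2. The sign for NASH-fib against HSCs turned without HSC replicate 2 and without NASH-fib replicates 2 or 3.

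Lamc3 encodes γ3, a chain of restricted expression described in nerve, retina and reproductive tract (chr2:31887281-31946535, plus strand), and it showed the widest contrast of the 9. HSC libraries held 0, 1.46 and 3.59, which are 0, 1 and 3 reads, while CCl4-fib held 327, 519 and 295, and NASH-fib 53.0, 22.3 and 34.4. The 3 groups were fully separated in the order CCl4-fib, NASH-fib, HSCs. With 4 HSC reads in all, the fold of the summed reads, scaled for library size, was 227 in CCl4-fib (exact Clopper-Pearson 95% interval 88.5 to 835) and 20.5 in NASH-fib (7.75 to 76.6), where the intervals cover counting error only. Lamc3 rose in both (limma, adjusted p = 3.82e-05 and 0.00186). Between the models Lamc3 fell by 3.38 ± 0.63 on the log2 scale in NASH-fib, or 10.4-fold (limma, adjusted p = 0.0136). That call was lost on leaving out CCl4-fib replicate 2 (-3.14; limma, adjusted p = 0.0737) or NASH-fib replicate 3 (-3.38; limma, adjusted p = 0.0551). The exons of Lamc3 share 382 bases with the antisense gene Gm13441.

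Counted over the family, all 9 members passed the filter on low reads. In CCl4-fib against HSCs, 4 members were called higher (Lama4, Lama5, Lamb2 and Lamc3) and 1 lower (Lama1), at adjusted p under 0.05 and at least 2-fold, where 27.8% of the 13651 genes tested were called, 16.2% higher and 11.7% lower. Groups did not overlap for 6 members, 4 above and 2 below, against 48.6% of genes tested (27.8% above and 20.9% below). In NASH-fib against HSCs, 3 members were called higher (Lama2, Lama5 and Lamc3) and 2 lower (Lama1 and Lamb1), where 12.5% of genes were called, 8.23% higher and 4.3% lower, and 5 members did not overlap, 3 above and 2 below, against 24.4% (12.7% above and 11.6% below). In NASH-fib against CCl4-fib, 0 members were called higher by limma (also 0 at an unadjusted p under 0.05 and 0 by edgeR and DESeq2) and 2 lower (Lamb1 and Lamc3), where 10.6% of genes were called, 4.97% higher and 5.66% lower, and 3 members did not overlap, all below, against 39.1%. The median log2 difference of the 9 was 1.92, 1.70 and -0.92 in these comparisons, beside 0.18, -0.02 and -0.11 over all genes tested. The TMM scaling moved the median of all genes by -0.12, 0.06 and 0.18, and in the last comparison the share of calls that were higher was 46.7% as deposited and 58.8% in edgeR with TMM. The first 2 comparisons share the HSC libraries, so their calls are not independent. The number of members called higher in NASH-fib against HSCs was 5 without NASH-fib replicate 1, and the number called lower against CCl4-fib was 0 on omitting replicate 2 of CCl4-fib or replicate 3 of NASH-fib and 1 on omitting replicates 1 or 3 of CCl4-fib.

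**Figure D2:**
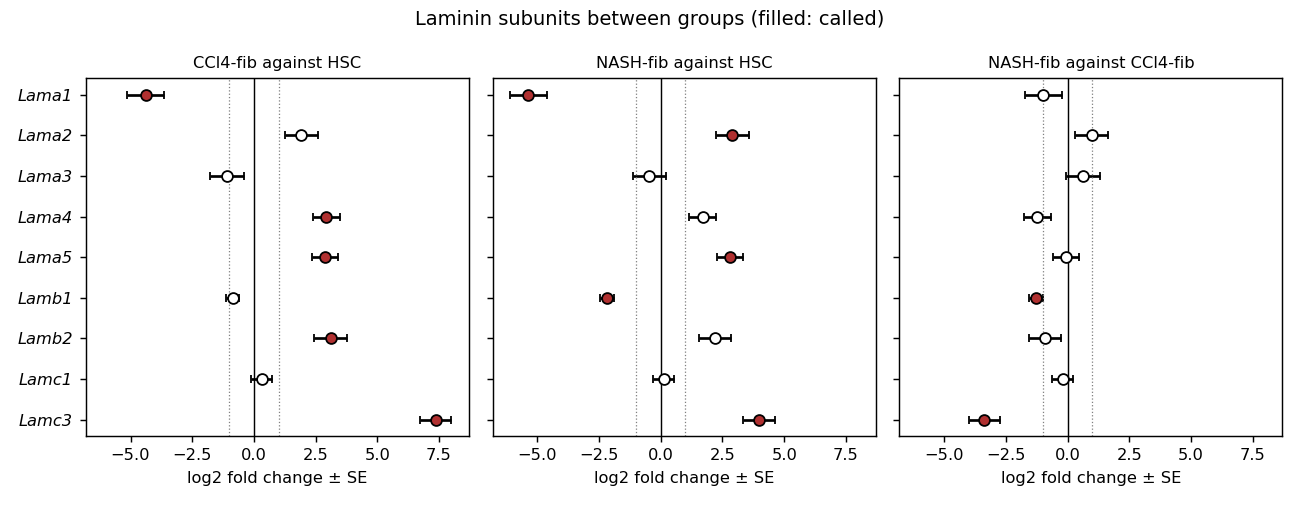
Log2 differences of the 9 laminin subunits (points, with bars for ± 1 SE, from limma on log2(value + 1), filled where called) in CCl4-fib and NASH-fib against HSC and in NASH-fib against CCl4-fib, with dotted lines at the 2-fold limit. Lamc3 is farthest right against HSC at 7.36 in CCl4-fib and 3.98 in NASH-fib, values that depend on the pseudocount because HSC lie at the floor, and Lama1 is farthest left at -4.38 and -5.37.

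To compare chains with each other, reads were divided by transcript length and library total (RPKM) and summed over the members of each class. The summed level of the α chains was 19.8 ± 8.65 RPKM in HSCs, 39.3 ± 2.75 in CCl4-fib and 28.1 ± 8.40 in NASH-fib (SD, n = 3). Lamb1 and Lamb2 summed to 68.0 ± 6.09, 51.03 ± 7.34 and 23.5 ± 5.64, and Lamc1 and Lamc3 to 25.1 ± 8.25, 44.4 ± 2.62 and 29.5 ± 11.6. In each HSC library the β level was the highest of the 3 classes, whereas in NASH-fib it was the lowest in replicates 2 and 3 and the highest in replicate 1. CCl4-fib and HSCs did not overlap in any class, nor did the β sums of NASH-fib and HSCs. The exact permutation test (two-sided, 3 against 3) gave p = 0.1 for these 4 contrasts, the smallest it can give. The same exact test gave p = 0.3 for the α and 0.5 for the γ sums of NASH-fib against HSCs, and between the models p = 0.1 for each class.

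By share of RPKM, the leading α chain was Lama1 in HSCs and Lama4 in CCl4-fib. Within the α class of HSCs, Lama1 took 63.4%, 55.0% and 74.2% in replicates 1, 2 and 3, followed by Lama4 with 18.2% to 23.4%. In CCl4-fib Lama1 took 0.663% to 3.54%, and Lama4 was first with 60.2%, 73.5% and 82.3%. NASH-fib divided the class between Lama4, with 31.5%, 45.1% and 58.5%, and Lama2, with 53.3%, 36.7% and 31.7%, and NASH-fib replicate 1 alone had more Lama2 than Lama4. Lama5 took 12.02% ± 4.39 in NASH-fib, 8.37% ± 1.54 in CCl4-fib and 2.498% ± 1.05 in HSCs (SD, n = 3).

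Of the summed RPKM of Lamb1 and Lamb2, Lamb1 made up 95.7% to 98.4% in HSCs, 60.2% to 78.4% in CCl4-fib and 48.4% to 84.5% in NASH-fib. Of that of Lamc1 and Lamc3, Lamc3 made up 28.9%, 41.4% and 26.01% in CCl4-fib, 12.2%, 2.17% and 3.94% in NASH-fib and at most 0.480% in HSCs, with no overlap between any pair of groups. The exact permutation test gave p = 0.1, its smallest value, for the share of Lamc3 in each comparison and for the shares of Lama2 and Lama4 between the models. For the share of Lamb2 the exact test gave p = 0.1 in both fibroblast groups against HSCs and 0.7 between the models.

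**Figure D3:**
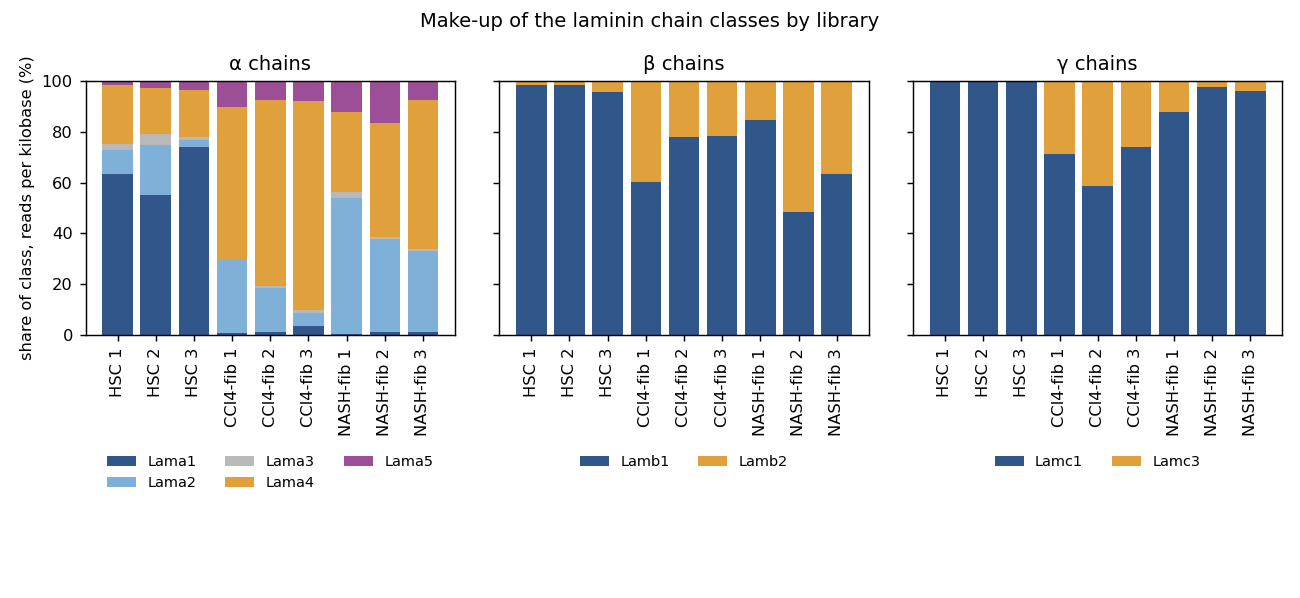
Share of each chain in the summed RPKM of its class (%, stacked to 100%) in the 9 libraries, for the 5 α, 2 β and 2 γ chains among the members. Lama1 fills 55.0% to 74.2% of the α class in HSC and at most 3.54% in any fibroblast library, and Lamc3 fills 26.01% to 41.4% of the γ class in CCl4-fib.

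Receptors of laminin did not move as 1 group. Beside the counts of this and the following lists stand the shares of all genes tested. These were 16.2% called higher and 11.7% lower in CCl4-fib against HSCs, 8.23% and 4.3% in NASH-fib against HSCs, and 4.97% and 5.66% between the models. Of 8 integrin subunits listed as binding laminins, 2 were called higher (Itga7 and Itgb4) and 2 lower (Itga1 and Itga9) against HSCs in each fibroblast group. Between the models limma called 0, with 2 at an unadjusted p under 0.05, while edgeR called 1 and DESeq2 2. The median differences were 0.04, 0.39 and 0.02. Itga7, the laminin receptor of muscle, rose in both, from 4.37 to 9.56 in HSCs to 109 to 267 in CCl4-fib and 53.0 to 332 in NASH-fib (limma, adjusted p = 0.00116 and 0.00323). Itgb4, the partner of α6 in hemidesmosomes, was at the floor in HSCs with at most 4.37 and stood at 41.3 to 61.1 in CCl4-fib and 9.83 to 13.6 in NASH-fib (limma, adjusted p = 0.000819 and 0.0354). Itga1 and Itga9, subunits of receptors for collagen and for tenascin and other ligands besides laminin, fell in both. Itga1 held 996 to 1656 in HSCs, 165 to 199 in CCl4-fib and 282 to 623 in NASH-fib (limma, adjusted p = 0.000371 and 0.0177). Itga9 held 1368 to 1853, 160 to 295 and 254 to 398 (limma, adjusted p = 0.000315 and 0.00137). Itgb1, the common β subunit, held 2358 to 3891, 1941 to 2257 and 2043 to 5036, with differences of -0.58 and -0.05 that did not pass. Itga6 (-0.13 and -0.51) and Itga3 (2.63 and 2.08) did not pass either.

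Dystroglycan binds the end of the α chains and links it to dystrophin, with sarcoglycans at its side. Dag1 held 223 to 809 in HSCs, 1115 to 1288 in CCl4-fib and 374 to 1262 in NASH-fib, and its differences of 1.39 and 0.63 did not pass. Of 12 genes of this complex, 3 were higher and 1 lower in CCl4-fib against HSCs, while 3 calls in NASH-fib against HSCs and 2 in NASH-fib against CCl4-fib were for higher levels, with medians of 0.90, 0.95 and 0.90. Sgcd (δ-sarcoglycan) rose in all 3, with 1.20 to 4.37 in HSCs, 16.2 to 42.9 in CCl4-fib and 89.4 to 166 in NASH-fib. Sgca and Dtna (α-dystrobrevin) rose in both fibroblast groups against HSCs, and Sgcb fell in CCl4-fib. Dmd, dystrophin itself, held 360 to 466 in CCl4-fib and 927 to 1548 in NASH-fib and rose between the models by 1.54 ± 0.37 (limma, adjusted p = 0.0291). Of 12 genes listed for the glycan on dystroglycan that laminin binds, 10 were found by symbol and tested. Among these 10, Pomt1 and Pomk rose in CCl4-fib against HSCs. In NASH-fib limma, edgeR and DESeq2 called 0 against HSCs (1 at an unadjusted limma p under 0.05) and 0 against CCl4-fib (0 at an unadjusted p under 0.05).

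Of 6 other laminin-binding receptors, Bcam, the Lutheran receptor for the α5 chain, rose from 7.17 to 10.5 in HSCs to 45.8 to 424 in CCl4-fib and 144 to 241 in NASH-fib (limma, adjusted p = 0.00194 and 0.00277). Sdc2 (syndecan-2) rose from 693 to 1303 to 2574 to 3342 and 2175 to 3550, and Sdc1 rose in CCl4-fib. That made 3 called higher in CCl4-fib and 2 in NASH-fib. Between the models limma, edgeR and DESeq2 called 0 of the 6 (1 at an unadjusted limma p under 0.05).

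Of 17 other basement membrane components, 6 calls in CCl4-fib against HSCs were for higher levels, with 7 higher and 1 lower in NASH-fib against HSCs, and 1 higher and 2 lower between the models. Col4a5 and Col4a6, the genes of the α5 and α6 chains of type IV collagen, rose from 5.98 to 11.7 and 3.59 to 13.1 in HSCs to 619 to 914 and 471 to 593 in CCl4-fib and to 276 to 549 and 340 to 598 in NASH-fib. Col15a1, Col18a1 and Fbln1 rose in both fibroblast groups, Col4a3 and Col4a4 in NASH-fib, and Pxdn, which cross-links type IV collagen, fell in NASH-fib. The main network chain gene Col4a1 (0.65 and -0.59) and Nid1, whose product ties the laminin γ1 chain to collagen (-0.85 and -0.67), did not pass in either group. Hspg2 (perlecan) held 131 to 160 in HSCs, 328 to 445 in CCl4-fib and 92.4 to 143 in NASH-fib, and Nid2 held 112 to 179, 253 to 387 and 57.0 to 170. Both fell between the models, Hspg2 by 1.60 ± 0.34 and Nid2 by 1.59 ± 0.45 (limma, adjusted p = 0.0198 and 0.0490), and Hspg2 rose in CCl4-fib against HSCs.

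Netrins share the short arm domains of laminins, and 4 of 8 genes on that list were tested. Ntn1 fell from 1498 to 1706 in HSCs to 102 to 156 in CCl4-fib and 164 to 224 in NASH-fib (limma, adjusted p = 4.42e-05 and 0.000157). Proteases that cut laminins or activate those that do were mostly higher in CCl4-fib, with 6 of 8 tested called higher (Mmp2, Mmp3, Mmp14, Bmp1, Plau and Plat) and 1 lower (Plg). Of all genes tested, 16.2% were called higher and 11.7% lower in CCl4-fib against HSCs. In NASH-fib against HSCs, Mmp3, Mmp7 and Plat were higher, and between the models Mmp7 and Plg were higher and Mmp14 and Bmp1 lower in NASH-fib. Plg, which hepatocytes secrete as plasminogen, held 158 to 727 in HSCs, 0 to 7.94 in CCl4-fib and 23.2 to 105 in NASH-fib, the order of the hepatocyte markers, of which 12 of 15 were lower in CCl4-fib than in HSCs and 7 higher in NASH-fib than in CCl4-fib. Bmp1, the proteinase that trims procollagens, held 792 to 1451 in CCl4-fib and 73.4 to 187 in NASH-fib. Over all these lists, 65 genes were tested, and 22 were higher and 5 lower in CCl4-fib, 17 and 4 in NASH-fib, and 5 and 4 between the models, beside 27.8%, 12.5% and 10.6% of all genes called in either direction. The list medians were 1.11, 0.82 and -0.18, beside 0.18, -0.02 and -0.11 over all genes. The 9 calls between the models became 3 on omitting CCl4-fib replicate 2 or NASH-fib replicate 3, 4 on omitting CCl4-fib replicate 3, 5 on omitting CCl4-fib replicate 1 or NASH-fib replicate 1, and 16 on omitting HSC replicate 2.

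**Figure D4:**
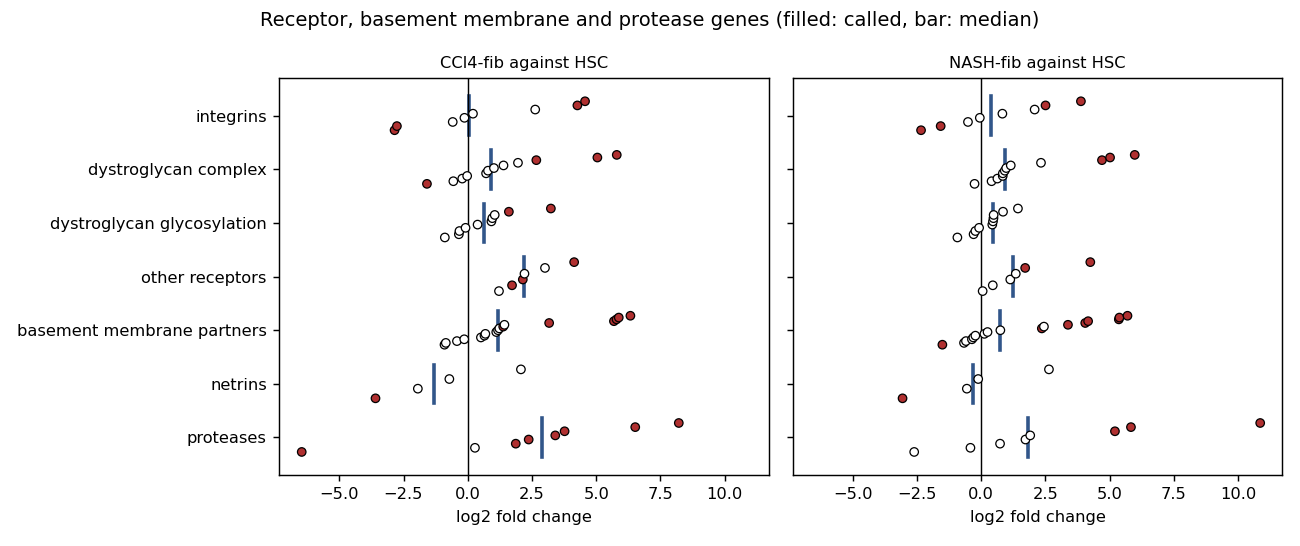
Log2 fold change on the log2(value + 1) scale of each tested gene on the lists of laminin receptors, basement membrane partners, netrins and proteases, in CCl4-fib and NASH-fib against HSC, with filled points for genes called, open points for the rest and a bar at each list's median. For integrins 2 of 8 genes are called on each side of 0 in both groups, and for proteases 6 of 8 are called higher in CCl4-fib.

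Summed markers of several other cell types were higher in both fibroblast groups than in HSCs. Mesothelial markers (8 genes) summed to 706 to 1018 in HSCs, 16350 to 22600 in CCl4-fib and 25550 to 32270 in NASH-fib, and smooth muscle markers (9 genes) to 2456 to 3852, 11380 to 24610 and 13090 to 35380. Cholangiocyte markers (8 genes, Spp1 among them) summed to 72.5 to 232, 3488 to 4778 and 6103 to 11860, and Krt19 alone held 3.51 to 17.9, 771 to 2699 and 53.0 to 469. Portal fibroblast markers (10 genes) summed to 237 to 498 in HSCs, 13060 to 17070 in CCl4-fib and 6768 to 13550 in NASH-fib. All markers on the mesothelial list were above the floor in each group, 2 cholangiocyte markers were at the floor in CCl4-fib and 1 in NASH-fib, and 2 smooth muscle markers were at the floor in HSCs. Schwann cell markers (7 genes) summed to 16.02 to 24.6, 211 to 224 and 77.5 to 183, with Mbp and S100b above the HSC libraries in both fibroblast groups and Sox10 and Gfra3 at 0 in all 9 libraries. Their part in the levels of Lama2, Lama4, Lama5, Lamb2 and Lamc3 was not tested. The sum of pericyte markers (6 genes) did not follow this order, with 25700 to 42040 in HSCs, 2986 to 15840 in CCl4-fib and 18030 to 31910 in NASH-fib. Most of the HSC sum was Rgs5 and Abcc9, with means of 20730 and 11830. Of the 6 pericyte markers, 2 were called higher and 3 lower in CCl4-fib against HSCs, and 2 higher and 2 lower in NASH-fib against HSCs. The sum of vascular endothelial markers (8 genes) did not follow the order either, with 2380 to 2544, 2956 to 3287 and 2119 to 4119. The vascular sum of CCl4-fib was mostly Cd34, also a portal fibroblast marker, at 2811 to 3218.5 against 52.6 to 115 in HSCs. Of 6 vascular markers tested, 3 were called lower and 1 higher in CCl4-fib against HSCs. Mean Plvap was 1763 in HSCs and 87.3 in CCl4-fib, and mean Emcn 432 and 6.96. Hepatocyte, sinusoidal endothelial and macrophage RNA (11 genes, 5184 to 18060 in HSCs, 468 to 930 in CCl4-fib and 3005 to 6545 in NASH-fib) reached its highest sums in HSCs, as Lama1 and Lamb1 did, and its part in those was not tested either. The hepatocyte and macrophage sums of NASH-fib overlapped those of HSCs. The sinusoidal endothelial sums (1432 to 4487 in NASH-fib, 9404 to 17990 in HSCs) did not overlap, and nor did the values of Lama1 and Lamb1. In NASH-fib against HSCs, 1 of 15 hepatocyte, 9 of 12 sinusoidal endothelial and 4 of 11 macrophage markers were called lower. Between the models, Lamb1 was lower and the sums of these 3 lists were higher in NASH-fib, and a link between them was not tested.

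The genes whose log2 values followed each member most closely across the 9 libraries are given as a description, since the libraries share 3 groups and a common scaling. For Lama1 they were Pitpna, Rnaset2a and Helz2 (Pearson r = 0.982 to 0.972), for Lama2 Angptl1, Meox1 and Nnat (0.960 to 0.954) and for Lama4 Aebp1, Shisa4 and Igf2r (0.987 to 0.985). Lama5 lay closest to Sdc2, Npnt and Arhgap44 (r = 0.983 to 0.978), and Lamb2 to Col18a1, Cystm1 and Plcd1 (0.983 to 0.980). Sdc2 encodes a receptor on the lists above, Npnt the matrix protein nephronectin and Col18a1 a collagen of basement membranes. Lamb1 lay closest to Tnfrsf1b, Stx2 and Cxcl16 (0.973 to 0.963), Lamc1 to Ankrd46, Tuba1b and Naca (0.987 to 0.985), Lamc3 to Lrrn2, Tspan5 and B3galnt1 (0.987 to 0.981) and the weakly expressed Lama3 to Pdcd2, Sla and Zfp52 (0.942 to 0.933). Within the family Lama5 and Lamb2 had r = 0.936 and Lama1 and Lamb1 r = 0.807, whereas Lama1 and Lama2 had r = -0.884.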

How the data were processed

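Sorted fibroblasts and HSCs of several mice were pooled per library, amplified with the SMARTer kit and sequenced single-end. Per the labels and the study's methods, STAR aligned the reads to mm10, and HOMER counted those of either strand. The deposited values are a signal that the authors made by dividing gene read counts by 1 factor per library. The library totals were equal after it (4471988 to 4471995), so the main test corrected for library total only. Whole reads were recovered from 100% of values (within 0.05 of 1 read). Counts were foreseen, so the test was fitted to the unit: limma 3.58.1 in R 4.3.3 with a trended prior on log2(value + 1), 1 fit over 9 libraries and 3 groups, 13651 genes kept by filterByExpr (minimum count 10), Benjamini-Hochberg adjustment, and calls at adjusted p under 0.05 and a log2 difference of at least 1. edgeR 4.0.16 quasi-likelihood and DESeq2 1.42.0 on the recovered reads, 2 scalings, filters, pseudocounts, a replicate block, a date-like prefix term and leaving out each library were alternatives. Depth was 3071070 to 5634273 reads, and 3 reads (the floor) were worth 2.38 to 4.37. The header's command names 10 libraries, of which 9 are analysed here. Members, lists and tests were chosen with earlier results of these data known. All members are named, and from the context lists the genes called in any comparison, the defining receptors, and genes given for contrast (Col4a1 and Nid1, chosen after their values were seen). The 3 genes most like each member were taken by Pearson r. Marker lists are given by their summed values. Replicate numbers did not pair the libraries. Statistics were tested on simulated data. Some genes of the family and lists are not reported here.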

Additional observations from a re-analysis of the deposited data

Results flagged for a closer look

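For 2 members the difference from HSCs was not the same in the fibrosis models, as tested by NASH-fib against CCl4-fib with limma over the shared HSC libraries. Lamb1 was lower in NASH-fib by -1.30 on the log2 scale (adjusted p = 0.0209) and Lamc3 by -3.38 (adjusted p = 0.0136), in 3 of 3 libraries against 3 of 3 for each. Groups of 3 libraries were not tested for single outlying values.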

How the results depend on the processing

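Over the members and 21 alternatives, 525 values kept their direction and side of the threshold, 16 moved past it, 12 moved back from it and 14 turned in sign. The calls of Lama1 in both comparisons with HSCs, of Lama4, Lama5, Lamb2 and Lamc3 in CCl4-fib and of Lamb1 and Lamc3 in NASH-fib against HSCs held in all 21. Members called higher in NASH-fib against HSCs numbered 5, in place of 3, with edgeR, DESeq2 and TMM-scaled values, and 2 to 5 when 1 library was left out. Members called lower in NASH-fib against CCl4-fib numbered 1, in place of 2, with edgeR and with the date-like prefix, and 0 to 2 when 1 library was left out. For Lama5 between the models the difference was 0.17 with edgeR, 0.16 with DESeq2, 0.12 with TMM, 0.042 with upper-quartile scaling, 0.058 with the prefix and -0.44 to 0.18 with 1 library left out. Lamc1 between the models was at 0.052 with edgeR, 0.029 with DESeq2 and -0.48 to 0.21 with 1 library left out, and against HSCs in NASH-fib at -0.19 to 0.53 with 1 library left out. Context genes called in CCl4-fib against HSCs (27) numbered 3 where only genes with an average RPKM over 100 were kept, a filter that leaves 1080 genes and 0 members. Those called in NASH-fib against HSCs (21) numbered 3 with that filter. Between the models (9) they numbered 0 with that filter, 17 with DESeq2, 15 with a pseudocount of 10, 6 with the replicate block and 3 to 16 when 1 library was left out, lowest without CCl4-fib replicate 2 or NASH-fib replicate 3 and highest without HSC replicate 2. The γ sum of CCl4-fib was 41.4 RPKM with TMM against 44.4. With reads not divided by length, the share of Lama4 was 13.6% in HSCs and 60.8% in CCl4-fib (20.0% and 72.0% per length), and that of Lama5 13.2% in CCl4-fib and 16.4% in NASH-fib (8.37% and 12.02%). The cause of these shifts was not tested. Replicate numbers share no source in the labels: deviations of same-numbered libraries correlated at -0.47 to 0.51. The replicate block changed the call of Lama2 in CCl4-fib and no other member call. Within the date-like prefixes that hold both groups (2 for CCl4-fib against HSCs, 1 for NASH-fib against HSCs and 2 between the models, with 1 or 2 libraries per group in each), all 10, 5 and 4 differences of the called members kept their direction. This was fixed in advance, because the groups of each called member did not overlap, so it says nothing on the part of the prefix. Depth limits Lama3, Lama1 in NASH-fib and Lamc3 in HSCs, which rest on few reads.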
